A study of Mus musculus with 2 samples.

Results

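CEP genes encode proteins of the centrosome, most of them numbered by the size of the protein. They were taken as every gene on the array whose symbol is Cep followed by a number and an optional letter, with Cep55 left out. The symbol could be the array's own or the current symbol of the probe's RefSeq transcript. This gave 36 of the 22009 genes with a symbol on the array, 18 through the array's symbol and 18 through the accession alone. Cep110 (now Cntrl) and Cep27 (now Haus2) are members under older names. The cells were G1E-ER-GATA-1, a mouse erythroid line that lacks its own GATA-1 and carries GATA-1 fused to an estrogen receptor domain, so that estradiol switches GATA-1 on. In 1 arm the cells had received siRNA against Lmo2 and in the other control siRNA, and both arms were then kept in b-estradiol for 24 h. LMO2 bridges the DNA-binding factors of the erythroid complex that GATA-1 joins. Each of 2 dual-colour Agilent arrays, numbered as replicates, took RNA of both arms, with the LMO2 siRNA arm in Cy3 and the control arm in Cy5 on both. A dye effect and the siRNA effect therefore cannot be told apart. The labels do not say that the replicates came from separate cultures, so p-values measure only the spread between these arrays, which may be technical. The model is 1 line at 1 time point with Lmo2 lowered, not deleted.

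The centrosome is the main microtubule-organising centre of animal cells and consists of a pair of centrioles in a pericentriolar matrix. New centrioles form beside the old ones when the kinase PLK4 is recruited and the cartwheel proteins SAS-6 and STIL assemble. The older centriole carries appendages with which it anchors microtubules or docks at the membrane as the base of a cilium. CEP proteins act at each of these steps. Erythroid precursors divide while they mature and later expel the nucleus.

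Ratios are given as the LMO2 siRNA arm over the control arm on the log2 scale, as mean ± SD over the arrays (n = 2). Levels are normalized intensities of a probe in arbitrary units, which include an offset of 50 and are not comparable between probes. They carry no correction for position on the array, and neither does any overlap of the arms read from them. A gene is its brightest probe that was well above background in at least 1 channel on both arrays, which 14316 genes had. Of the 36 CEP genes 33 met this. Cep112, Cep126 and Cep170b were not well above background in either channel on either array and are given no ratio. A gene was called where limma's Benjamini-Hochberg adjusted p was under 0.05 over all 14316 genes. With 1 residual and 28.1 prior degrees of freedom that p rests mostly on variance pooled over genes. The log2 ratio drifted along the rows of the array. Most results are therefore also given after division by the scanner's own factor for position (position-corrected values), and some in the scanner's processed signals. A value without such a mention is uncorrected. "Rose" and "fell" are kept for genes called in the same direction in all 3 sets of values.

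Lmo2 itself read 1676 and 1633 units with LMO2 siRNA and 5907 and 6603 in control on replicates 1 and 2. It fell by 1.92 ± 0.14 (adjusted p = 2.9e-21, limma), as its labels state. The share of spots well above background was 55.8% in the lowest channel and 68.2% in the highest. All 11 erythroid markers on the array were measured. Of these 5 were called lower (45.5%, against 27.4% of all genes) and 3 higher (27.3%, against 24.5%, near that background). Corrected, 6 were lower (54.5%, against 17.9%) and 3 higher (27.3%, against 20.3%). The 3 called higher in both sets were Epor, at 0.32 and at 0.17 corrected, and Hba-a1 and Hbb-bt, whose probes held saturated spots. Klf1 read 25713 and 26537 units with LMO2 siRNA and 26717 and 28503 in control. Slc4a1, called lower at -0.49 and at -0.34 corrected, read 10261 and 9853 units with LMO2 siRNA and 14191 and 14031 in control. For that reason these globin probes are given no fold, with 94432 and 92763 units against 44979 and 45788 for Hba-a1. The erythroid sum was 284224 and 278851 units with LMO2 siRNA and 190635 and 193181 in control, and over the 9 markers without saturated spots it was 95227 and 92930 against 100610 and 101665. The labels also call the cells murine ES cells. Of 10 pluripotency markers 6 were measured, while Nanog, Sox2, Zfp42 and Lin28a were not well above background. Pou5f1 read 88 and 78 units with LMO2 siRNA and 84 and 81 in control, and Dppa5a, with 169 and 189 units with LMO2 siRNA and 133 and 141 in control, was called higher at 0.38 and at 0.22 corrected. Of the markers of other blood cells, Cd68, Ltf, Gp1ba, Gp5, Cpa3 and Hdc rose while Gp9 and Cd3e fell. Summed over 5 mast cell markers the level was 1204 and 1302 units with LMO2 siRNA and 710 and 781 in control, and without Hdc 384 and 422 units with LMO2 siRNA and 372 and 387 in control. Over 7 megakaryocyte markers it was 2986 and 3227 units with LMO2 siRNA and 2188 and 2239 in control, and without Gp1ba 1348 and 1405 units with LMO2 siRNA and 1449 and 1453 in control, where the order of the arms turns. The sums were 593 and 682 units with LMO2 siRNA and 564 and 640 in control for 5 granulocyte and macrophage markers, 624 and 622 units with LMO2 siRNA and 729 and 685 in control for 5 lymphocyte markers, and 638 and 659 units with LMO2 siRNA and 612 and 612 in control for 6 pluripotency markers. The part of such cells in the CEP values was not tested.

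The CEP genes were mostly lower with LMO2 siRNA, by small amounts. Of 33 measured members 20 were called lower (60.6%, against 27.4% of all measured genes), 8 were called higher (24.2%, against 24.5%) and 5 were called neither, where 51.9% of all genes were called in 1 direction or the other. Their median log2 ratio was -0.22, against -0.02 for all genes, and single members ran from -0.68 to 0.50. In position-corrected values 15 were called lower (45.5%, against 17.9% of all genes) and 4 higher (12.1%, against 20.3%), with a median of -0.13 against -0.01. Means below 0 numbered 22 of 33 uncorrected, 27 corrected and 27 in processed signals, against 53.8%, 53% and 54.9% of all genes' means. In processed signals 4 were called lower, against 3.41% of all genes, and 2 higher, against 6.8%. Cep57, Cep43, Cep95 and Cep152 fell, 12.1% of measured members against 2.56% of all genes. Cep170 and Cep68 rose, 6.06% of measured members against 5.42% of all genes, a share near that background. In levels, which carry no position correction, the arms did not overlap for 20 members that were lower (60.6%, against 32.5% of all genes). The same held for 9 that were higher (27.3%, against 30.1%). A bulk sample cannot tell fewer cells of a kind from less RNA per cell. No member differed more than 1.6-fold. Against a threshold of 1.5-fold, limma's treat called 0 members, and 0 had an unadjusted p under 0.05. Few genes passed it at all, with 290 called higher and 47 lower of all 14316.

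**Figure D1:**
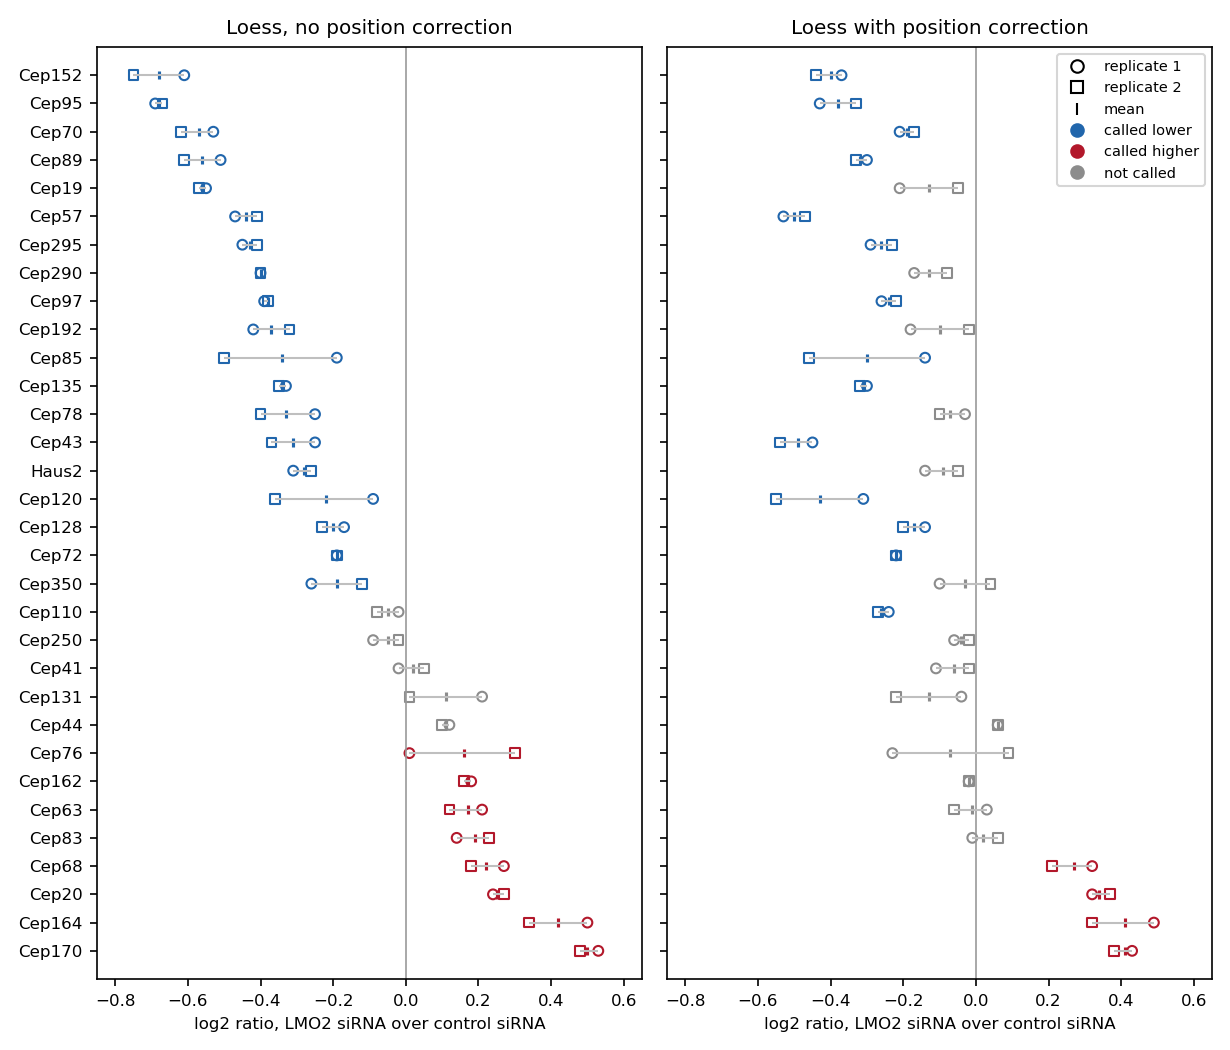
Log2 ratio of LMO2 siRNA over control siRNA for 32 of the 33 measured CEP genes on each array, without (left) and with (right) position correction, where circles are replicate 1, squares replicate 2, ticks the mean and colours limma's call. On the left 19 of the genes drawn are called lower and 8 higher, on the right 14 lower and 4 higher.

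Members' values moved with the place of the probe on the array. The array has 532 rows, and the median log2 ratio of all genes was -0.17 in rows 1 to 133, -0.06 in rows 134 to 266, 0.03 in rows 267 to 399 and 0.12 in rows 400 to 532. In position-corrected values these medians were 0, -0.02, -0.02 and -0.01. Rows 1 to 133 held 11 CEP genes, of which 11 were called lower, as were 55.7% of all genes there. Corrected, 6 of these 11 were called lower, against 17.8% of the genes there, and their median was -0.19. In rows 400 to 532, 3 of 11 members were called lower uncorrected, where 4.85% of all genes were, and 4 corrected, where 17.1% were. Correction ended the calls of Cep19, Cep290, Cep192, Cep78, Haus2 and Cep350 among members called lower, and of Cep63, Cep162, Cep83 and Cep76 among those called higher. It added Cep110 to the members called lower. With a curve along the rows subtracted instead, 20 members were called lower (against 23% of all genes) and 6 higher (against 22.4%). With median centring in place of loess the median of all genes moved to -0.40, 30 members were called lower (against 64.5% of all genes) and 0 higher (0 at an unadjusted p under 0.05, limma).

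Members with more than 1 usable probe show how far the probes of a gene differ. Among 18 such CEP genes the probes differed in sign for 10 uncorrected (55.6%, against 48.9% of all genes with further probes). Corrected it was 5 (27.8%, against 41.1%), and in processed signals 6 (33.3%, against 39.9%). The median gap between a gene's most distant probes was 0.27 uncorrected and 0.09 corrected, against 0.25 and 0.15 over all 5191 genes with further probes. Cep95 had a probe in row 18 at -0.68 and another in row 396 at -0.32, which corrected were -0.38 and -0.41. The brightest probe of Cep63, in row 385, read 0.17 and a second in row 128 read -0.31, which corrected were -0.01 and -0.11. The 3 probes of Cep70 read -0.57 in row 23, -0.43 in row 59 and 0.18 in row 514, and corrected -0.19, -0.15 and -0.01. With the uncorrected mean over usable probes in place of the brightest, the calls of Cep120 (-0.05), Cep128 (-0.12), Cep72 (-0.11), Cep290 (-0.03), Cep350 (-0.05), Cep162 (0.01), Cep76 (0.03) and Cep63 (-0.07) were lost.

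**Figure D2:**
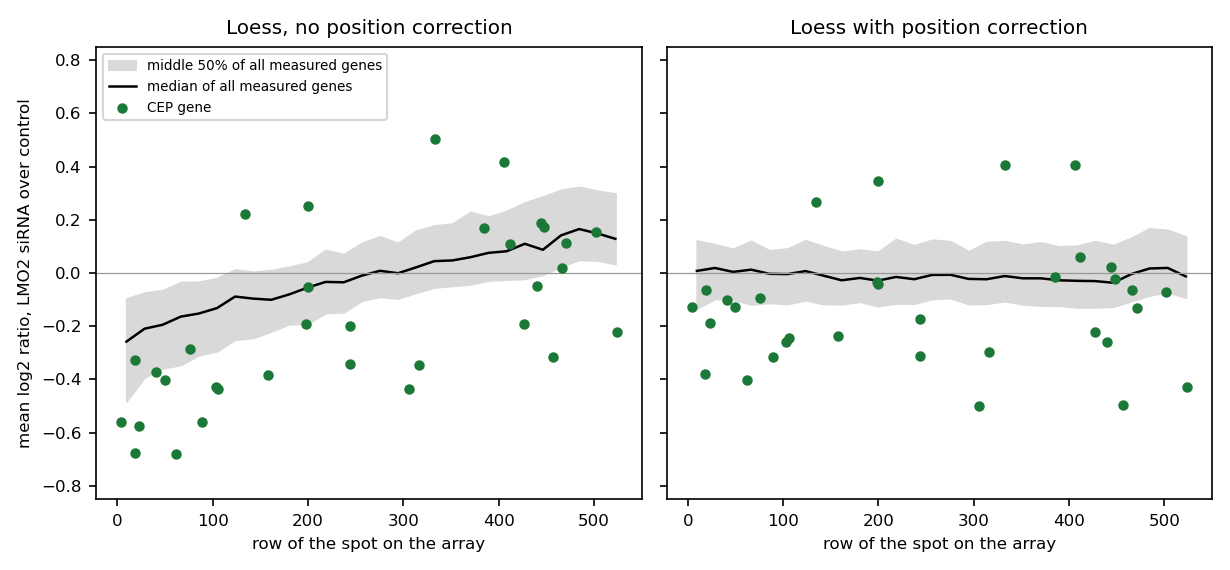
Mean log2 ratio of each CEP gene (green) against the row of its spot on the array, with the median (line) and the middle 50% (band) of all 14316 measured genes, without (left) and with (right) position correction. On the left the median of all genes climbs from -0.17 in rows 1 to 133 to 0.12 in rows 400 to 532, and on the right it stays near 0 while 27 of 33 CEP genes lie below 0.

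The members grouped here under PLK4 recruitment and procentriole assembly were mostly lower. Groups of members by role are approximate, and this group takes in Cep57 and Cep76, whose own roles are given below. Of 8 measured, 6 were called lower (75%, against 27.4% of all genes) and 2 higher (25%, against 24.5%). Corrected, 4 were lower (50%, against 17.9%) and 0 higher (0%, against 20.3%). The medians were -0.34 and -0.20. Cep152, the scaffold that brings PLK4 to the old centriole, read 728 and 658 units with LMO2 siRNA and 1111 and 1108 in control. The levels of the arms lay well apart on both arrays. Cep152 fell by 0.68 ± 0.10 (1.6-fold lower, adjusted p = 3.6e-11, limma), by 0.40 ± 0.05 corrected (2.6e-04) and by 0.46 ± 0.06 in processed signals (0.048). Cep57, which keeps the centriole pair together and binds the pericentriolar matrix, read 1726 and 1689 units with LMO2 siRNA and 2385 and 2237 in control. All levels with LMO2 siRNA were below all control levels. Cep57 fell by 0.44 ± 0.04 (adjusted p = 1.4e-07, limma), by 0.50 ± 0.05 corrected (6.3e-05) and by 0.53 ± 0.04 in processed signals (0.039).

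Cep135, a pinhead protein that joins the cartwheel to the microtubules, read 373 and 367 units with LMO2 siRNA and 469 and 468 in control. It was called lower at -0.34 ± 0.02 and at -0.31 ± 0.01 corrected, and missed the threshold in processed signals (-0.38 ± 0.01, adjusted p = 0.053, limma). A second probe read -0.16, or -0.22 corrected. The STIL-binding protein gene Cep85 was called lower at -0.34 ± 0.22 and at -0.30 ± 0.22 corrected. Its arrays differed, with -0.19 on replicate 1 and -0.50 on replicate 2, both uncorrected. Cep192, the partner scaffold of Cep152, read 1116 and 988 units with LMO2 siRNA and 1490 and 1237 in control. It was called lower at -0.37 ± 0.07 in row 41 and was not called corrected (-0.10 ± 0.11, adjusted p = 0.19, limma). Cep78 was called lower at -0.33 ± 0.10 in row 19 and was not called corrected (-0.07 ± 0.05, adjusted p = 0.36, limma).

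Cep63, which works with Cep152 in recruiting PLK4, was near 0 once corrected. It read 5115 and 5215 units with LMO2 siRNA and 4409 and 4784 in control, with every LMO2 siRNA level above the control levels. It was called higher at 0.17 ± 0.06 and read -0.01 ± 0.06 corrected (adjusted p = 0.87, limma). Cep76, which restrains reduplication of centrioles, differed between the arrays, at 0.01 on replicate 1 and 0.30 on replicate 2. It was called higher at 0.16 ± 0.21 and read -0.07 ± 0.22 corrected.

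Of the 5 measured members that set centriole length and maturation, 4 were called lower (80%, against 27.4% of all genes) and 0 higher (0%, against 24.5%). Corrected, 4 were lower (80%, against 17.9%) and 0 higher (0%, against 20.3%). Cep295, needed for new centrioles to become centrosomes, read 880 and 814 units with LMO2 siRNA and 1202 and 1080 in control. Cep295 was called lower at -0.43 ± 0.03 and at -0.26 ± 0.05 corrected (adjusted p = 0.0036, limma). Cep97, the partner of CP110 in the cap that limits centriole growth, read 609 and 584 units with LMO2 siRNA and 797 and 758 in control. The arms did not overlap. Cep97 was called lower at -0.38 ± 0.01 and at -0.24 ± 0.03 corrected. Its other probes read -0.19 and 0.09, or -0.07 and 0.08 corrected.

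Cep120, which promotes centriole elongation, read 240 and 234 units with LMO2 siRNA and 255 and 300 in control. Replicate 2 was farther from 0 than replicate 1, with -0.36 against -0.09. Cep120 was called lower at -0.22 ± 0.19 in row 524 and at -0.43 ± 0.17 corrected. Its 3 dimmer probes read between -0.01 and 0.02, or between -0.08 and 0.02 corrected. Cep44, a protein of the centriole lumen, was called in neither set (0.11 ± 0.01, and 0.06 ± 0.01 corrected), although its levels with LMO2 siRNA lay above those in control, at 237 and 233 units against 218 and 217.

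Members of the mother centriole's appendages went both ways. Of 6 measured, 2 were called lower (33.3%, against 27.4% of all genes) and 3 higher (50%, against 24.5%). Corrected, 3 were lower (50%, against 17.9%) and 2 higher (33.3%, against 20.3%). Cep170, a subdistal appendage protein that binds microtubules, read 418 and 457 units with LMO2 siRNA and 288 and 328 in control. Every level with LMO2 siRNA lay above every control level. Cep170 rose by 0.50 ± 0.04 (1.42-fold, adjusted p = 9.3e-09, limma), by 0.41 ± 0.04 corrected (2.3e-04) and by 0.52 ± 0.03 in processed signals (0.039), and read 0.05 with median centring in place of loess. Its dimmer usable probes read 0.12 and 0.00, or 0.19 and 0.02 corrected.

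Cep164, the distal appendage protein needed to dock a cilium, read 350 and 356 units with LMO2 siRNA and 248 and 281 in control. It was called higher at 0.42 ± 0.11 and at 0.41 ± 0.12 corrected, missed the threshold in processed signals (0.52 ± 0.13, adjusted p = 0.051, limma), and read -0.01 with median centring. Cep89, another distal appendage gene, went the other way with 2172 and 1974 units with LMO2 siRNA and 3101 and 3006 in control. It was called lower at -0.56 ± 0.07 and at -0.32 ± 0.02 corrected, and missed the threshold in processed signals (-0.34 ± 0.02, adjusted p = 0.060, limma). Cep83, which lays the base of the distal appendages, was called higher at 0.19 ± 0.07, and read 0.02 ± 0.05 corrected and -0.41 with median centring. Cep128 of the subdistal appendages was called lower at -0.20 ± 0.05 and at -0.17 ± 0.04 corrected. Its second probe read -0.03, or -0.14 corrected, and the uncorrected mean over these probes was not called (adjusted p = 0.078, limma). A further entry under 4930534B04Rik, the array's older name on both Cep128 probes, was counted as a separate gene and not as a member. That entry fell, at -0.6, at -0.36 corrected and at -0.49 in processed signals. Cep110, which encodes centriolin, read 1369 and 1261 units with LMO2 siRNA and 1393 and 1328 in control, and the arms overlapped. It was not called at -0.05 ± 0.04 and was called lower at -0.26 ± 0.02 corrected (adjusted p = 0.0032, limma).

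Of the linker that ties the centrioles of a cell together, Cep68 and Cep250 were measured. Cep68 was dim, at 120 and 116 units with LMO2 siRNA and 99 and 103 in control, of which 50 units are the offset. Its arms did not overlap. Cep68 rose by 0.22 ± 0.07 (adjusted p = 0.0014, limma), by 0.27 ± 0.08 corrected (0.0037) and by 0.66 ± 0.10 in processed signals (0.037), which carry no such offset, and read 0.10 with median centring. Cep250, the linker's anchor C-Nap1, differed more between the arrays than between the arms, at 190 and 141 units against 202 and 142. It was not called (-0.05 ± 0.05, adjusted p = 0.46, limma).

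Cep43, Cep350, Cep19 and Cep20 belong together at the centriole's far end, where FOP (the product of Cep43) and CEP350 recruit CEP19. Cep43 read 822 and 701 units with LMO2 siRNA and 980 and 908 in control. The highest level with LMO2 siRNA stayed under the lowest control level. Cep43 fell by 0.31 ± 0.08 (adjusted p = 2.9e-05, limma), by 0.49 ± 0.06 corrected (7.8e-05) and by 0.55 ± 0.07 in processed signals (0.041), and its other probe read -0.35, or -0.28 corrected. Cep20, a relative of FOP, was on the other side with 683 and 744 units with LMO2 siRNA and 578 and 618 in control. It was called higher at 0.25 ± 0.02 and at 0.34 ± 0.03 corrected, missed the threshold in processed signals (0.37 ± 0.05, adjusted p = 0.056, limma), and read -0.27 with median centring. Cep19 lay in row 4 and read 1328 and 1344 units with LMO2 siRNA and 1950 and 1994 in control. Cep19 was called lower at -0.56 ± 0.01 and was not called corrected, where the arrays gave -0.21 and -0.05. Cep350 was called lower at -0.19 ± 0.10 and read -0.03 ± 0.10 corrected.

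Of the 5 measured members known for the cilium and the satellites around the centrosome, 2 were called lower (40%, against 27.4% of all genes) and 1 higher (20%, against 24.5%). Corrected, 1 was lower (20%, against 17.9%, a share near that background) and 0 higher (0%, against 20.3%). Cep290, a transition zone protein, read 374 and 354 units with LMO2 siRNA and 495 and 467 in control. It was called lower at -0.40 ± 0.0031 in row 50 and was not called corrected (-0.13 ± 0.06, adjusted p = 0.089, limma). Its other probe in row 470 read 0.34, or 0.17 corrected. Cep72, a satellite protein, was called lower at -0.19 ± 0.0041 and at -0.22 ± 0.00016 corrected. Its second probe read -0.03, or -0.16 corrected, and the uncorrected mean over probes was not called (adjusted p = 0.094, limma). Cep162, whose product binds the microtubules of the cilium, was called higher at 0.17 ± 0.02 and read -0.02 ± 0.0036 corrected. Cep131, a satellite protein, and Cep41, a factor for tubulin glutamylation in cilia, were not called, at 0.11 ± 0.14 and 0.02 ± 0.05. Corrected they read -0.13 ± 0.13 and -0.06 ± 0.06.

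Cep70 and Haus2 are tied to microtubule nucleation, Cep70 as a binder of gamma-tubulin and Haus2 as a subunit of augmin, the complex that branches microtubules in the spindle. Cep70 read 7647 and 7914 units with LMO2 siRNA and 11027 and 12158 in control. Cep70 was called lower at -0.57 ± 0.06 and at -0.19 ± 0.03 corrected (adjusted p = 0.016, limma). Haus2 was called lower at -0.28 ± 0.03 and was not called corrected (-0.09 ± 0.06). Cep95, whose role is less settled, read 401 and 404 units with LMO2 siRNA and 645 and 642 in control. The arrays differed by a few units and the arms by far more. Cep95 fell by 0.68 ± 0.01 (1.6-fold lower, adjusted p = 2.3e-11, limma), by 0.38 ± 0.07 corrected (4.0e-04) and by 0.47 ± 0.06 in processed signals (0.047).

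**Figure D3:**
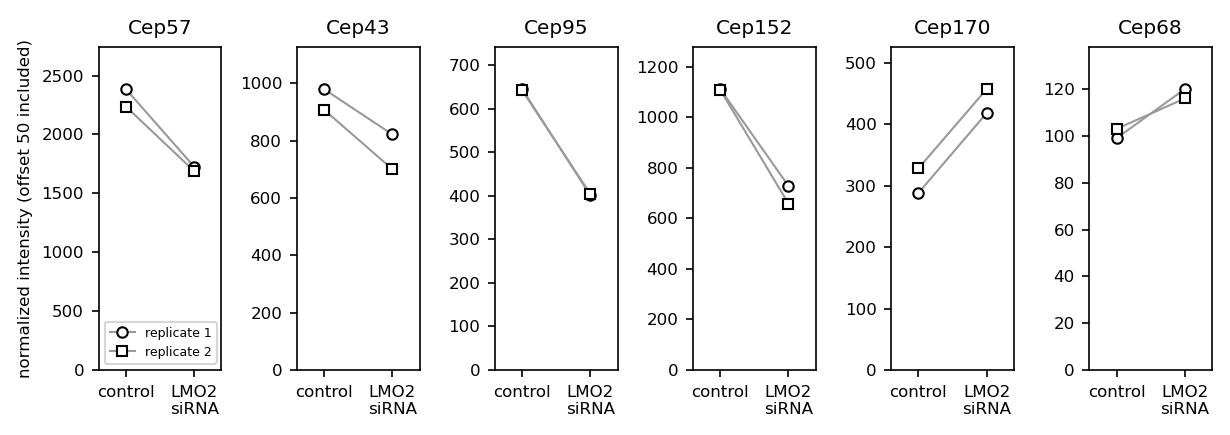
Normalized intensity (offset of 50 included, no position correction, axes from 0) of the 4 CEP genes that fell and the 2 that rose, in the control and LMO2 siRNA channels of each array, with a line for each array. For Cep57 the arrays go from 2385 and 2237 to 1726 and 1689 units, and for Cep170 from 288 and 328 to 418 and 457.

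The promoter windows of the genes that fell or rose are shown because these members moved in all 3 sets of values. They come from RefSeq (GRCm38.p6) and run 5′ to 3′ on the gene's strand from 250 bases before to 50 after the annotated start. Where a gene had more than 1 window, the one with the higher GC content is given. Capitals mark matches on either strand to GATAA (GATA factors), CAGCTG and CAGATG (E-boxes), TTTGAA and TTCGAA (the cell cycle homology region), TTCCCGC and TTGGCGC (E2F) and CGGAAG (ETS factors).
Cep57, chr9:13827004-13827303, minus strand: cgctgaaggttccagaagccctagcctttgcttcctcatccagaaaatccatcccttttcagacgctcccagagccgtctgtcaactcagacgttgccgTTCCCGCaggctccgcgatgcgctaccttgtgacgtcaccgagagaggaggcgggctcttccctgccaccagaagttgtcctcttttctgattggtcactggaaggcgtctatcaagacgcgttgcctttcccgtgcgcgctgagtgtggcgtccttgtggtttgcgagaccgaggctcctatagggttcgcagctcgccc
Cep43, chr17:8165268-8165567, plus strand: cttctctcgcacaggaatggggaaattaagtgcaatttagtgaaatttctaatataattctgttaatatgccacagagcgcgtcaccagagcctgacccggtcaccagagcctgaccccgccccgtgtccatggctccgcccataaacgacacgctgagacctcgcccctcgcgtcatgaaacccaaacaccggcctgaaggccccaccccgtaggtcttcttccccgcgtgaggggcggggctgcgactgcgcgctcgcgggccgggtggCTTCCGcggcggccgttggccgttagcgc
Cep95, chr11:106789002-106789301, plus strand: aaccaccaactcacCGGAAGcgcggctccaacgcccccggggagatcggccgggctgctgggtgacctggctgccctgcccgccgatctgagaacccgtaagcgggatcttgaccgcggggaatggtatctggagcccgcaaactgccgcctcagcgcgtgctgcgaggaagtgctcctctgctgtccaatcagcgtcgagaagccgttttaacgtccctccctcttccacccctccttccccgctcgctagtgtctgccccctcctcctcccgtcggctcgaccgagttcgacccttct
Cep152, chr2:125625064-125625363, minus strand: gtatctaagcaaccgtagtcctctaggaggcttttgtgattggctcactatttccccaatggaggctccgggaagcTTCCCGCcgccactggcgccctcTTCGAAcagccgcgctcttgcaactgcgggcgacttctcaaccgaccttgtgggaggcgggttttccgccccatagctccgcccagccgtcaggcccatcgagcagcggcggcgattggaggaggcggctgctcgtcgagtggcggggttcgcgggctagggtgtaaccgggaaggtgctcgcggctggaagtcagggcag
Cep170, chr1:176813904-176814203, minus strand: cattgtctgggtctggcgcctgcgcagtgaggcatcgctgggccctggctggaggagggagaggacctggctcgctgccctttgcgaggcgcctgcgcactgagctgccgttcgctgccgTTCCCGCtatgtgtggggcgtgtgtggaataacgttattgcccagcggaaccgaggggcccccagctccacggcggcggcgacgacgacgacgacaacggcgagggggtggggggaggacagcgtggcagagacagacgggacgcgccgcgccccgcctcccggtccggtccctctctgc
Cep68, chr11:20249375-20249674, minus strand: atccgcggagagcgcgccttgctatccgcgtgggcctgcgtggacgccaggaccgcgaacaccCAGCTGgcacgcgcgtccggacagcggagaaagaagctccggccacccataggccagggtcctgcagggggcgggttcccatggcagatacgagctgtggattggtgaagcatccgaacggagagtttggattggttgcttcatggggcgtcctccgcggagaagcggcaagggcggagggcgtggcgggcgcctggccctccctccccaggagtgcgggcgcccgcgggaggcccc
The windows of Cep152, Cep57 and Cep170 hold TTCCCGC, and that of Cep152 also holds TTCGAA. Those of Cep43 and Cep95 hold CGGAAG, and that of Cep68 holds CAGCTG. None of the windows printed holds GATAA. A second window of Cep57 adds an ETS match to the E2F match, and a second window of Cep170 holds TTTGAA. The 31 CEP genes with a window had 40 windows, with a median GC content of 62.2% against 52.7% for all 32851 windows. TTCCCGC was in 12 of the 40, against 4.6% of all windows and 8.73% of the 14253 windows with at least 55% GC. By gene it was in 10 of 31 (32.3%), against 5.29% of all genes. These were Cep110, Cep112, Cep128, Cep152, Cep170, Cep295, Cep41, Cep44, Cep57, Cep70. Among the 29 CEP windows with at least 55% GC it was in 11 (37.9%). For the other motifs the share of CEP windows and of all windows, then both shares among windows with at least 55% GC, were as follows. CGGAAG was in 32.5% against 16.9%, and 31% against 27.9%. TTTGAA was in 20% against 17.9%, and 10.3% against 7.71%. GATAA was in 25% against 25.4%, and 17.2% against 10.9%. TTCGAA was in 2.5% against 1.56%, and 3.45% against 1.69%. TTGGCGC was in 0% against 2.45%, and 0% against 4.39%. CAGCTG was in 10% against 16.3%, and 13.8% against 17.4%. CAGATG was in 7.5% against 17.2%, and 0% against 11.3%. The general E-box CANNTG, which takes in both named E-boxes, was in 52.5% against 72.3%, and 41.4% against 63.7%. A match describes these letters and is not a bound site.

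Other genes of the same steps were counted from fixed lists. The procentriole list takes in Fbf1, a gene of the distal appendages. Of its 9 genes 6 were called lower (66.7%, against 27.4% of all genes) and 1 higher (11.1%, against 24.5%). Corrected, 6 were lower (66.7%, against 17.9%) and 0 higher (0%, against 20.3%). Sass6, the cartwheel protein, fell, at -0.84 and at -0.50 corrected. It read 571 and 538 units with LMO2 siRNA and 990 and 998 in control. Stil, the partner of Sass6, fell, at -0.26 and at -0.38 corrected. Plk4 (-0.59), Spice1 (-0.64) and Ccp110 (-0.39) were called lower, and again corrected at -0.29, -0.36 and -0.26. Of 16 genes of the pericentriolar matrix and gamma-tubulin complexes 12 were called lower (75%, against 27.4% of all genes) and 0 higher (0%, against 24.5%). Corrected, 10 were lower (62.5%, against 17.9%) and 0 higher (0%, against 20.3%). The mitotic kinase gene Plk1 fell, at -0.70 and at -0.44 corrected. Pcnt (-0.74), which encodes the matrix scaffold pericentrin, Aurka (-0.58) and Tacc3 (-0.47) were called lower, and again corrected at -0.36, -0.41 and -0.36.

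Of 13 genes of the ciliary transition zone 2 were called lower (15.4%, against 27.4% of all genes) and 4 higher (30.8%, against 24.5%). Corrected, 2 were lower (15.4%, against 17.9%) and 5 higher (38.5%, against 20.3%). Tmem237 rose by 0.61 (0.55 corrected) and B9d2 was called higher at 0.54 and at 0.32 corrected. Tctn1 was called lower at -0.26 and not corrected (-0.10). With median centring Tmem237 read 0.14 and B9d2 -0.18. Of 15 intraflagellar transport genes 6 were called lower (40%, against 27.4% of all genes) and 3 higher (20%, against 24.5%). Corrected, 4 were lower (26.7%, against 17.9%) and 3 higher (20%, against 20.3%). Ift122 rose by 0.35 (0.33 corrected, -0.05 with median centring). Ift140 was called higher at 0.34 (0.21 corrected, -0.18 with median centring). Ift20 (-0.61) and Ift81 (-0.34) were called lower, and again corrected at -0.30 and -0.19. The lists were not tested against each other.

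Among 8 augmin genes, Haus2 included, 5 were called lower (62.5%, against 27.4% of all genes) and 2 higher (25%, against 24.5%). Corrected, 3 were lower (37.5%, against 17.9%) and 2 higher (25%, against 20.3%). Haus4 fell, at -0.63 and at -0.46 corrected. Haus6 (-0.40) and Haus8 (-0.31) were called lower, and again corrected at -0.17 and -0.35. Haus1 was called higher at 0.41 (0.17 corrected, -0.32 with median centring). Of 9 satellite genes 5 were called lower (55.6%, against 27.4% of all genes) and 3 higher (33.3%, against 24.5%). Corrected, 4 were lower (44.4%, against 17.9%) and 2 higher (22.2%, against 20.3%). Ccdc66 fell, at -0.74 and at -0.45 corrected. Bbs4 (-0.35) and Ofd1 (-0.34) were called lower, and again corrected at -0.25 and -0.30. Ssx2ip was called higher at 0.63 (0.57 corrected, 0.01 with median centring). It read 2665 and 2507 units against 1333 and 2082, the gap being wider on replicate 1. Of 18 linker, appendage and lumen genes, Cep110 included, 5 were called lower (27.8%, against 27.4% of all genes) and 4 higher (22.2%, against 24.5%). Corrected, 4 were lower (22.2%, against 17.9%) and 2 higher (11.1%, against 20.3%). These shares are near those of all genes apart from the 11.1% higher corrected. Poc5 fell, at -0.69 and at -0.45 corrected. Odf2 (-0.57) and Ninl (-0.57) were called lower, and again corrected at -0.40 and -0.20. Cetn3 was called lower at -0.44 and read -0.03 corrected.

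Proliferation genes were mostly lower as well. Of 30 measured 23 were called lower (76.7%, against 27.4% of all genes) and 2 higher (6.67%, against 24.5%). Corrected, 26 were lower (86.7%, against 17.9%) and 0 higher (0%, against 20.3%). The kinetochore gene Cenpf fell, at -0.89 and at -0.59 corrected, and Ccnb2, Ccne1, Cdc20, Cenpe, Mcm4 and Mcm5 fell too. Ccna2 (-0.71), Bub1b (-0.70) and Mcm7 (-0.68) were called lower, and again corrected at -0.40, -0.45 and -0.42. In processed signals Ccna2, Bub1b and Mcm7 were not called. The part of the share of dividing cells in the CEP values was not tested.

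**Figure D4:**
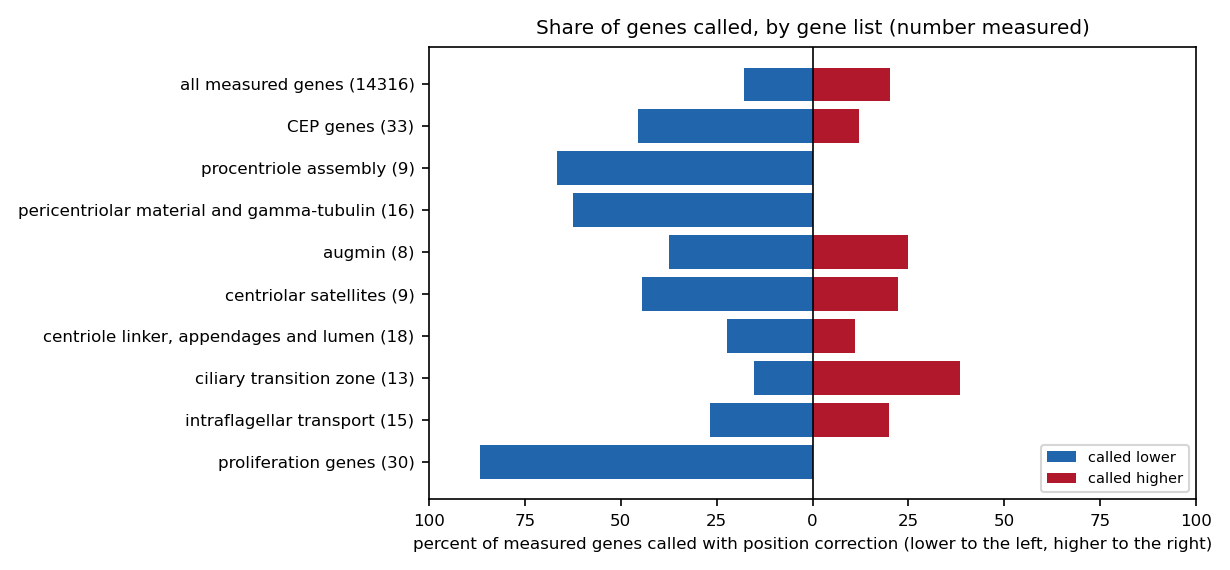
Percent of measured genes called lower (left of 0) and higher (right of 0) by limma in position-corrected values, for all measured genes, the CEP genes and each fixed list, with the number measured in parentheses. The share called lower is 17.9% for all genes, 45.5% for CEP genes, 66.7% for the procentriole list and 86.7% for proliferation genes.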

How the data were processed

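RNA of both arms was read on 2 dual-colour arrays on 1 slide with Agilent Feature Extraction 9.1.3.1, per the file headers. The deposited files give spot and local background intensity, processed intensity (background-subtracted, detrended and dye-normalized), a position ratio per channel (0.671 to 1.31) and a log10 ratio of red over green, per the file headers. The deposited series table holds those log10 ratios (every spot matched within rounding), and both columns have a median of 0. For the genome build of the array the sources used here give no name.

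Signals were background-corrected (normexp, offset 50), loess-normalized with weight 0 for control spots in limma 3.58.1 (R 4.3.3) and turned to LMO2 siRNA over control. Levels were scaled between arrays (Aquantile). Spots of 1 probe were averaged, with 245 probes having 10. For position correction, signals after background subtraction were divided by the deposited ratio, and then the offset was added. Of 41174 probes 24836 were named by RefSeq accession (GRCm38.p6 table, names only), 9644 by the array, and 6694 had no symbol. The test of each gene used lmFit and eBayes on its ratio against 0. 

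Members, lists and tests were chosen with earlier results of these data known. Named genes are every measured CEP gene, Lmo2 and up to 4 members of each other list with the largest absolute ratio, apart from 2 genes that are counted but whose own values are not reported here. Stil, the cell type markers and the proliferation genes beyond those 4 were singled out with their values in view. The alternatives concerned background, normalization, position, filters, flagged and saturated spots, probe summary, variance prior, threshold, the series' own table and each array alone.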

Additional observations from a re-analysis of the deposited data

How the results depend on the processing

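Position correction, processed signals and the series' own table gave 2900, 974 and 898 genes called higher and 2568, 488 and 425 lower, against 3509 and 3923 in the values reported. For CEP genes they gave 4, 2 and 2 called higher, 15, 4 and 4 lower, and medians of -0.13, -0.18 and -0.18. With median centring 425 genes were called higher and 9238 lower (64.5% of all), the median of all genes was -0.40 and that of CEP genes -0.66, and limma called 0 CEP genes higher (0 at an unadjusted p under 0.05) and 30 lower. A threshold of 1.5-fold left 290 genes higher, 47 lower and 0 CEP genes in either direction (0 at an unadjusted p under 0.05, limma's treat). Averaging over probes gave 5 of 33 CEP genes higher, 15 lower and a median of -0.11. Over all 14316 genes it gave 3166 higher, 3550 lower and a median of -0.02. With 1 array alone the CEP median ranged from -0.26 to -0.19. A curve along the rows, subtracted in place of the scanner's factor and chosen after seeing the data, left 20 CEP genes called lower (against 23% of all genes) and 6 higher (against 22.4%). The alternatives on background subtraction, offset, dim probes, flagged and saturated spots and priors kept each of these counts within 1.5 times. Beyond what these settings do by construction, the cause of the differences was not tested.

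The sign turned for Cep131 (-0.13 corrected for position, -0.15 in processed signals, -0.15 in the table and -0.47 with median centring), Cep162 (-0.02 corrected for position, -0.03 in processed signals, -0.03 in the table and -0.41 with median centring), Cep41 (-0.06 corrected for position, -0.08 in processed signals, -0.08 in the table and -0.33 with median centring), Cep63 (-0.01 corrected for position, -0.01 in processed signals, -0.01 in the table and -0.51 with median centring) and Cep76 (-0.07 corrected for position, -0.08 in processed signals, -0.08 in the table and -0.34 with median centring). It also turned for Cep41 with the row curve (-0.03), for Cep63 averaged over probes (-0.07), and with median centring for Cep164 (-0.01), Cep20 (-0.27), Cep44 (-0.25) and Cep83 (-0.41). No paired analysis was possible because none remains to be added: the ratio within an array, tested over both arrays throughout, already pairs the arms, and there is no unpaired group. Processed signals had 2.2 prior degrees of freedom, so a miss there does not show that a member did not differ. Signal over background limits dim members such as Cep68, and 2 arrays limit every value.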
